A study of Rattus norvegicus with 17 samples.

Results

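The genes described here code for growth factors, for the ligands, receptors and secreted antagonists of the TGF-beta, Wnt, Notch, ERBB and Eph pathways, and for proteins named after them. They were taken by symbol from the lists of transcripts that the study gives as changed by sub-total nephrectomy, leaving out Tgfb1, Inhba and Ephb6. This gave 24 of the 23487 genes in the count table, or 24 of the 2007 genes that carry a symbol in the parts of those lists used here. Kidney RNA came from 12 male Wistar Han rats after sub-total nephrectomy (SNx) and from 5 controls, all from the second of the study's pair of SNx experiments (study 2), with 1 library per rat. In SNx most of the functioning kidney mass is removed, by resection of a part of the right kidney and later removal of the left, and the remnant fails progressively. A preset threshold of disease was the criterion for culling, but by the study's account only a minority of the operated rats of this experiment met it. They were fewer than the 12 sequenced here, so some of these 12 were below it. The labels do not say which of these 12 did, and time after surgery differed between animals. The labels call the controls NoOp (not operated), whereas the paper calls the controls of this experiment sham, and NoOp is used here. The labels give neither strain nor age, and strain and sex are from the study's methods.

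These pathways carry signals between cells through secreted or membrane-bound ligands, and in the adult kidney they are best known from development, repair and fibrosis. TGF-beta and activin ligands act through SMAD proteins and drive the deposition of matrix. Notch ligands on one cell activate Notch receptors on the next and thereby the HES and HEY repressors. Many secreted SFRP and DKK proteins bind Wnt ligands or their co-receptors and mostly dampen Wnt signalling. Receptor tyrosine kinases of the ERBB, FGF, PDGF, TAM and Eph families pass growth, survival and adhesion signals. Several of the 24 share a name with a growth factor but not its role. Bmp1 is a protease that processes procollagen, Tgfbi a matrix protein, Egfl6 a secreted protein with EGF-like repeats, Hgfac the protease that activates HGF, and Tgfb1i1 (Hic-5) a focal adhesion adaptor.

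How a gene came onto the lists decides what can be tested. Of the 24 genes, 17 stand in the study 1 list and not in the part of the study 2 list used here. They entered through study 1, which used other rats, so the comparison of SNx with NoOp in study 2 was not needed to choose them and is tested here. The study 2 list is shortened, and some of the 17 may stand in the rest of it. They are called genes listed from study 1 alone in this sense. The other 7 (Axl, Bmp1, Efna4, Ephb1, Heyl, Inhbb and Tgfb2) were selected on the study 2 list, that is on this very contrast. Their values are given as a description with no test, and that they differ between SNx and NoOp is what selected them. Values per library are log2 CPM, the log2 of CPM (counts scaled to library size, here with TMM factors for library composition) with a prior count of 2, and they are not corrected for gene length, so levels are compared between libraries and not between genes. Fold changes are those of edgeR's quasi-likelihood fit of SNx over NoOp across 15438 genes, with Benjamini-Hochberg adjustment over all of them and FDR < 0.05 as the threshold. Total counts per library lay between 19210434 and 30784070 for SNx and between 30454170 and 43876369 for NoOp, and all 24 genes passed the filter on low counts. P-values measure the spread between these samples.

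Of the 17 genes listed from study 1 alone, 16 were differentially expressed, 11 upregulated and 5 downregulated, and Notch4 was not called. Over all tested genes 58.0% were called, 30.3% upregulated and 27.7% downregulated. Among the 1511 other tested genes on the study 1 list alone, 92.1% were called in study 2, 49.6% of the 1511 as upregulated, so the 94.1% of these 17 is close to the share of listed genes in general. Their median log2 fold change was 0.80, against 0.02 over all tested genes. In 8 of the 17 every SNx library lay above all NoOp libraries, in 3 every one lay below, and in 6 the groups overlapped. Such a separation was seen in 23.1% of all tested genes, in 13.5% with SNx above and in 9.6% with SNx below. The 7 genes on the study 2 list were all higher in SNx, with no overlap, and had a median log2 fold change of 1.53.

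**Figure D1:**
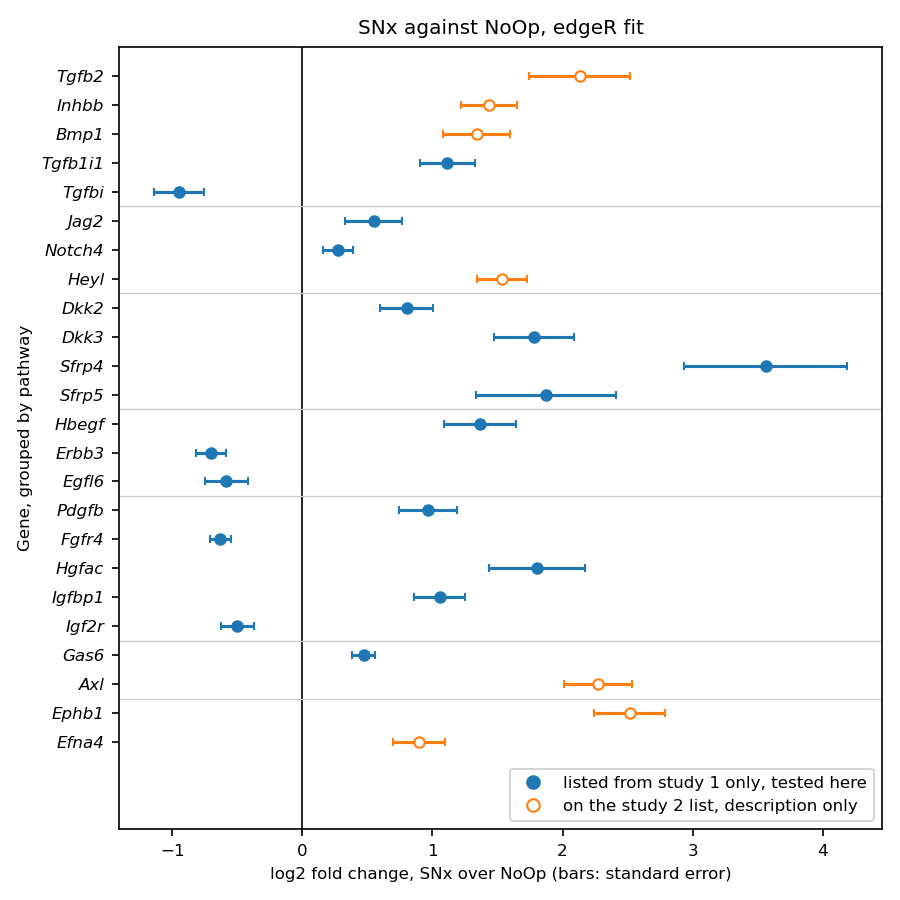
Log2 fold change of SNx (12 rats) over NoOp (5 rats) for the 24 genes, grouped by pathway, with the standard error as bars. Filled points are the 17 genes listed from study 1 alone, and open points the 7 genes chosen on this contrast. Tgfbi, Erbb3, Egfl6, Fgfr4 and Igf2r lie below 0 and the other 19 genes above it.

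The TGF-beta group held ligands that were higher in the remnant kidney and 1 matrix gene that was lower. The genes Tgfb2, Inhbb and Bmp1 were selected on this contrast and are described without a test. Tgfb2 (ENSRNOG00000002418, chromosome 13), one of the TGF-beta ligands, was at 3.18, 2.78, 2.66, 2.69 and 2.14 log2 CPM in NoOp 1 to 5 and between 3.54 and 6.10 in SNx, with a median of 4.52. Every SNx library was above every control, and the fitted difference was 2.13 ± 0.39 (standard error) on the log2 scale, 4.38-fold. SNx 1 held the highest value and SNx 4 the lowest. Inhbb (ENSRNOG00000060237, chromosome 13) codes for the beta-B subunit of activin B and inhibin B. It was at 2.34, 2.75, 2.59, 3.36 and 3.45 log2 CPM in the NoOp libraries and had a lowest, median and highest value of 3.60, 4.37 and 4.99 in SNx, a fold change of 2.70. Its controls were spread more widely than the SNx libraries, the only one of the 24 genes for which this was so (SD 0.49 against 0.35).

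Bmp1 (ENSRNOG00000010890, chromosome 15), the procollagen protease, ranged from 5.32 to 5.76 log2 CPM in NoOp and from 6.04 to 7.93 in SNx with a median of 6.77, 2.53-fold higher. Tgfb1i1 (ENSRNOG00000019965, chromosome 1), the adaptor Hic-5, is among the genes tested here. Its NoOp values were 3.55, 3.14, 3.17, 3.30 and 3.18 log2 CPM, all below the lowest SNx value of 3.81, and SNx reached 5.37 in SNx 1 with a median of 4.19. It rose 2.16-fold, a log2 fold change of 1.11 ± 0.21 (edgeR, adjusted p = 0.000392).

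Tgfbi (ENSRNOG00000012216, chromosome 17) is named for its induction by TGF-beta and fell. NoOp values were 6.56, 6.71, 6.59, 6.72 and 6.31 log2 CPM, and SNx values ran from 5.03 in SNx 7 through a median of 5.34 to 6.22 in SNx 1. All 12 SNx libraries lay below all 5 controls, and the log2 fold change was -0.95 ± 0.19 (edgeR, adjusted p = 0.000627). SNx 1, 4, 9 and 11 held the highest of the SNx values, at 5.96 to 6.22. Of the TGF-beta genes that the symbol rule leaves out, Tgfb1 rose by 1.61 ± 0.18 on the log2 scale (edgeR, adjusted p = 3.29e-06) and Inhba by 3.62 ± 0.49 (adjusted p = 1.74e-05).

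**Figure D2:**
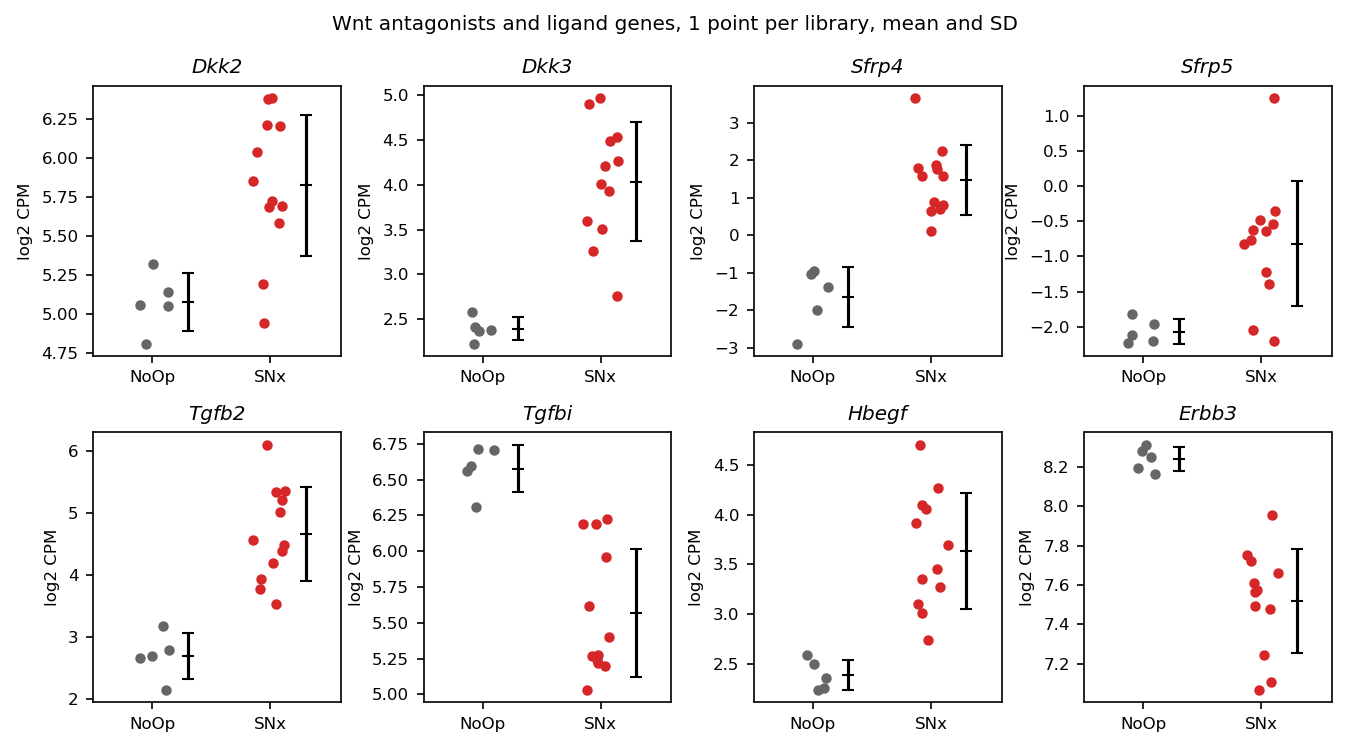
Log2 CPM of 8 genes in each library, 5 NoOp (grey) and 12 SNx (red), with the mean and SD of each group beside the points and a separate vertical scale for each gene. The groups overlap for Dkk2 and Sfrp5. Tgfbi and Erbb3 are lower in every SNx library, and Dkk3, Sfrp4, Tgfb2 and Hbegf are higher in every one.

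All 4 SFRP and DKK genes among the 24 were upregulated, and the highest operated rat was not the same for each. They are genes of these families that the study lists as changed, and others without a symbol in the lists were not seen. Of the other genes on the study 1 list alone 92.1% were called, so nothing is read from all 4 being called. Sfrp4 (ENSRNOG00000054957, chromosome 17), a secreted decoy for Wnt ligands, had the largest fold change of the 24. It was barely detected in the controls, with 2 to 17 counts per library and values of -1.99, -1.37, -2.89, -0.96 and -1.02 log2 CPM. In SNx it held 23 to 262 counts and 0.11, 1.59 and 3.66 log2 CPM as lowest, median and highest value. No SNx library overlapped the controls, and the log2 fold change was 3.56 ± 0.63 (edgeR, adjusted p = 0.000205). With so few control counts the size of this fold is less certain than its direction, and leaving out 1 library at a time gave 3.16 to 3.80.

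Dkk3 (ENSRNOG00000016343, chromosome 1), a secreted glycoprotein of the Dickkopf family made by stressed tubules, was at 2.37, 2.58, 2.23, 2.38 and 2.42 log2 CPM in NoOp. The SNx libraries ran from 2.76 in SNx 8 to 4.96 in SNx 1, with a median of 4.11. It rose 3.43-fold (log2 fold change 1.78 ± 0.31, edgeR, adjusted p = 0.000166) with no overlap, and the spread among SNx libraries was 5.24 times that of the controls. Dkk2 (ENSRNOG00000011360, chromosome 2), which binds the LRP co-receptors of Wnt, rose 1.74-fold (log2 fold change 0.80 ± 0.20, edgeR, adjusted p = 0.00312). Its controls were at 5.32, 5.14, 5.06, 5.05 and 4.81 log2 CPM and its SNx libraries at 4.94 to 6.38 with a median of 5.79. SNx 8 and SNx 10 lay within the range of the controls, and the other 10 above it. SNx 7 and SNx 1 were highest for both Dickkopf genes.

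Sfrp5 (ENSRNOG00000014940, chromosome 1), another secreted frizzled-related protein, was near the limit of detection in the controls, with 4 to 6 counts and -2.20, -1.82, -1.96, -2.12 and -2.22 log2 CPM. SNx values ran from -2.20 in SNx 1 to 1.24 in SNx 2 with a median of -0.70. SNx 1 and SNx 5 were at the level of the controls and the other 10 above them. The log2 fold change of 1.87 ± 0.54 passed the test (edgeR, adjusted p = 0.00694). The SNx counts were also few, from 3 in SNx 1 to 59 in SNx 2, with 22 in SNx 3 as the next highest. Leaving out 1 library in turn brought the log2 fold change to between 1.47 and 1.97.

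The promoter of Sfrp5 is shown because it was the single promoter of these genes to hold GTGGGAA, the letters bound by RBPJ, the DNA-binding partner of Notch. Promoters came from RefSeq on build GRCr8, 250 bases before to 50 after the start, and 18 of the 24 genes had an entry. They were searched on both strands for GTGGGAA, for the AP-1 letters TGANTCA and for the SMAD letters CAGACA, which do not contain one another. GTGGGAA stood in 6.29% of 33469 promoters, TGANTCA in 7.33% and CAGACA in 21.1%, and each stood in 1 of the 18. The promoter of Sfrp5 lies at chr1:250960463-250960762, minus strand, and its match begins 41 bases before the start (capitals). A match is a description of these letters and not a bound site.
Sfrp5: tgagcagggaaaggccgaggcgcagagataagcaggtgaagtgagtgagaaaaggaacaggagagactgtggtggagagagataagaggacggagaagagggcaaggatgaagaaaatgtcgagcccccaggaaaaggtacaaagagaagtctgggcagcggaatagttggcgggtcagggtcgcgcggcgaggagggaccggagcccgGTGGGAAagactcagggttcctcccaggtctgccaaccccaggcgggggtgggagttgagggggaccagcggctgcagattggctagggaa

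In the Notch pathway the ligand gene rose slightly and the receptor gene was not called. The HEY-family gene Heyl was higher in every operated rat, but it was selected on this contrast and not tested. Jag2 (ENSRNOG00000013927, chromosome 6), a Notch ligand, was at 5.48, 5.37, 5.38, 5.42 and 5.84 log2 CPM in NoOp, and at 5.16, 5.94 and 6.84 as lowest, median and highest in SNx. The groups overlapped, with 7 of 12 SNx libraries above all controls and 1 below. The 1.46-fold rise passed the threshold narrowly (log2 fold change 0.55 ± 0.22, edgeR, adjusted p = 0.0388), and it did not pass in 10 of the 27 alternative analyses, among them limma-voom at adjusted p = 0.0565.

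Notch4 (ENSRNOG00000000442, chromosome 20), a Notch receptor known from endothelium, was at 6.38, 6.42, 6.68, 6.50 and 6.50 log2 CPM in NoOp and 6.34 to 7.26 in SNx with a median of 6.76. Its log2 fold change of 0.27 ± 0.12 missed the threshold (edgeR, adjusted p = 0.0523) and passed it in 10 of the 27 alternatives. Heyl (ENSRNOG00000015318, chromosome 5), a transcriptional repressor of the HEY family that Notch can induce, was at 4.33, 4.31, 4.11, 4.12 and 4.26 log2 CPM in NoOp. Its SNx values were 5.01 to 6.40 with a median of 5.68, 2.90-fold above the controls and with no overlap.

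Although Jag2 and Notch4 differed little between the groups, they varied together among the operated rats. The symbol rule did not use this variation, but the pairs were chosen with earlier results of these data known. Across the 12 SNx libraries Pearson's r was 0.90 and Spearman's rho 0.85 (permutation test, adjusted p = 0.00045 and 0.0034 over 5 pairs tested). Without SNx 1 and SNx 11, the libraries farthest from the median of Jag2, r was 0.77. Within the lower and upper ranges of sample numbers, 6 SNx libraries each, r was 0.87 and 0.95. Only 0.175% of all tested genes correlated with Notch4 as strongly, in either direction, as Jag2 did. That share was counted for Notch4 and not for Jag2. Jag2 was correlated more strongly with Hbegf (r = 0.96), Bmp1 (0.94) and Heyl (0.93) than with Notch4. The remaining genes described here had an r with Jag2 of smaller size. For Jag2 the relation was therefore not particular to its receptor gene.

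Notch4 and Heyl were also correlated, with r = 0.86 and rho = 0.79 (permutation test, adjusted p = 0.000775 and 0.0081), r = 0.69 without SNx 1 and SNx 11, and 0.82 and 0.88 within the ranges. Against Heyl, 17.2% of all tested genes had an r of at least the size seen over all SNx libraries, so this relation was common in the table. The promoter of Notch4, at chr20:4189023-4189322 on the minus strand of GRCr8, is shown because the receptor gene tracks both others and because it is the single promoter of the 18 with TGANTCA (capitals, beginning 9 bases after the start base). GTGGGAA was recorded for neither Jag2 nor Heyl, which says nothing about a gene without a promoter entry. Whether both are among the 18 with an entry is not stated here.
Notch4: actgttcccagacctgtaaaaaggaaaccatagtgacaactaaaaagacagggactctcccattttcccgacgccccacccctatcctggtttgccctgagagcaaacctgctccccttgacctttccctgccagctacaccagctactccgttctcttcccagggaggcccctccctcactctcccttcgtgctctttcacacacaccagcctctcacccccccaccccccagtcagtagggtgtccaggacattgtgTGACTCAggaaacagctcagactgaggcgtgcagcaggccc

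**Figure D3:**
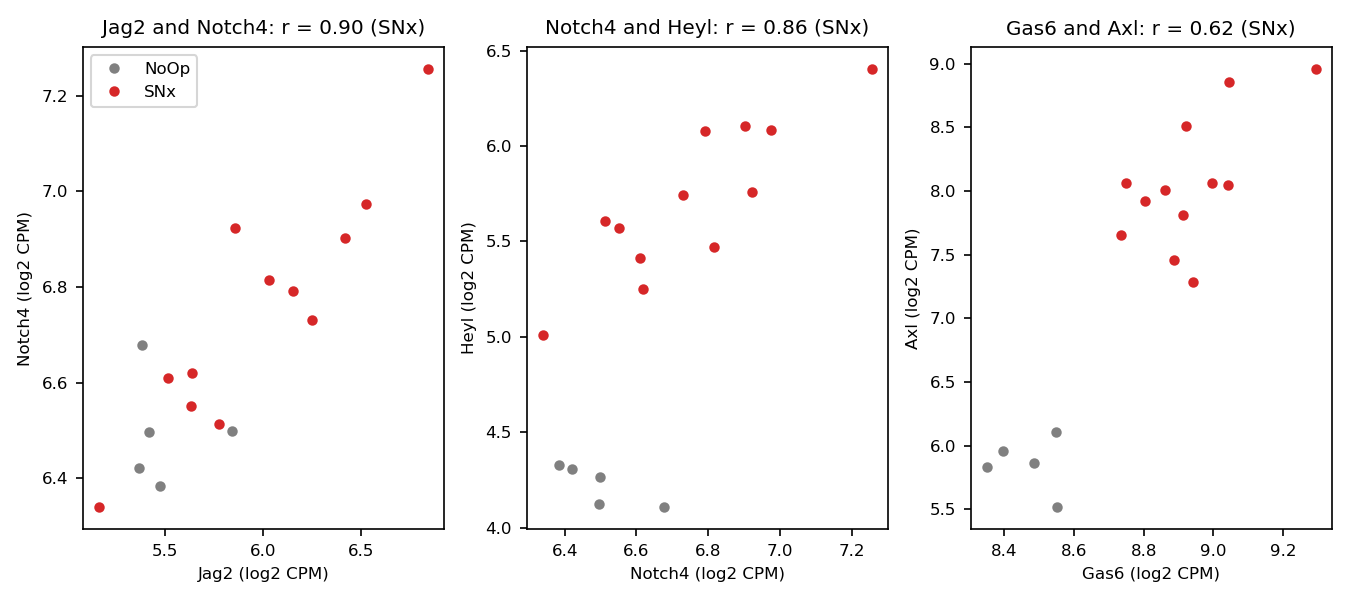
Log2 CPM of 3 pairs of genes against each other, 1 point per library, NoOp in grey and SNx in red, with Pearson's r over the 12 SNx libraries in the title. Jag2 and Notch4 overlap with the controls while Heyl and Axl stand apart from them, and SNx 1 is the point at the upper right of each panel.

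In the ERBB family a ligand gene rose and a receptor gene fell. Hbegf (ENSRNOG00000018646, chromosome 18) codes for heparin-binding EGF-like growth factor, which activates the EGF receptor. NoOp values were 2.36, 2.23, 2.25, 2.59 and 2.49 log2 CPM, below all SNx values, which ran from 2.73 in SNx 11 to 4.71 in SNx 1 with a median of 3.57. It rose 2.57-fold (log2 fold change 1.36 ± 0.28, edgeR, adjusted p = 0.000664). Erbb3 (ENSRNOG00000004964, chromosome 7), the neuregulin receptor that signals as a heterodimer, was at 8.28, 8.31, 8.17, 8.25 and 8.20 log2 CPM in NoOp. Its SNx values were 7.06 to 7.96, median 7.57, all below the controls, and the fall was to 0.614 of the control level (log2 fold change -0.70 ± 0.12, edgeR, adjusted p = 0.000113). Egfl6 (ENSRNOG00000004275, chromosome X) was downregulated with an overlap. It ranged from 3.57 to 4.28 log2 CPM in NoOp and from 2.47 to 3.87 in SNx, 9 of 12 below all controls (log2 fold change -0.58 ± 0.17, edgeR, adjusted p = 0.00698).

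Among the other growth factor systems, Pdgfb (ENSRNOG00000017197, chromosome 7), the B chain of PDGF and a mitogen of mesenchymal cells and pericytes, had the tightest controls of the 24. They were at 5.41, 5.32, 5.33, 5.36 and 5.38 log2 CPM (SD 0.04), whereas SNx ran from 5.57 to 7.0 with a median of 6.19 and an SD of 0.50. The rise was 1.95-fold without overlap (log2 fold change 0.96 ± 0.22, edgeR, adjusted p = 0.00168). Fgfr4 (ENSRNOG00000016763, chromosome 17), a receptor of FGF ligands, fell from 7.41 to 7.60 log2 CPM in the controls to 6.54 to 7.16 in SNx, a small and even decrease (log2 fold change -0.63 ± 0.08, edgeR, adjusted p = 1.20e-05). It had the smallest p-value of the 17 and an SD of 0.17 among SNx libraries.

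Hgfac (ENSRNOG00000009572, chromosome 14), the secreted protease that activates hepatocyte growth factor, was at 2.61, 2.47, 1.88, 1.97 and 1.97 log2 CPM in NoOp and at 2.93 to 5.31 in SNx with a median of 3.80. It rose 3.49-fold with no overlap (log2 fold change 1.80 ± 0.37, edgeR, adjusted p = 0.000696). Igfbp1 (ENSRNOG00000058780, chromosome 14), which binds insulin-like growth factors, rose 2.08-fold, from 5.12 to 5.35 log2 CPM in NoOp to 5.61 to 6.88 in SNx (log2 fold change 1.06 ± 0.20, edgeR, adjusted p = 0.000336). Here SNx 9 was the highest library. Igf2r (ENSRNOG00000014997, chromosome 1), the receptor that clears IGF2 and sorts lysosomal enzymes, fell by 0.50 ± 0.13 on the log2 scale (edgeR, adjusted p = 0.00357). Its controls lay between 8.95 and 9.37 log2 CPM and its SNx libraries between 8.22 and 9.06, with SNx 3, 4 and 11 within the range of the controls.

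Of the TAM family, the ligand gene Gas6 rose a little and its receptor gene Axl, selected on this contrast, was several-fold higher. Gas6 (ENSRNOG00000018233, chromosome 16), the ligand, was at 8.55, 8.48, 8.35, 8.40 and 8.55 log2 CPM in NoOp and 8.73, 8.92 and 9.29 as lowest, median and highest in SNx. The 1.39-fold rise was small but even, with no overlap (log2 fold change 0.47 ± 0.09, edgeR, adjusted p = 0.000287). Axl (ENSRNOG00000020716, chromosome 1), a receptor of Gas6, was at 6.10, 5.87, 5.83, 5.96 and 5.52 log2 CPM in NoOp and 7.28 to 8.96 in SNx with a median of 8.03, 4.83-fold higher. Across the SNx libraries Gas6 and Axl had r = 0.62 and rho = 0.50 (permutation test, adjusted p = 0.0393 and 0.125). The relation rested on SNx 1 and SNx 9, without which r was 0.30, and r was 0.77 in the lower range and 0.08 in the upper. Of all tested genes, 47.7% were correlated with Axl at least as strongly as Gas6 over all SNx libraries, so r = 0.62 is an ordinary value in this table.

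Both Eph-family genes were selected on this contrast. Ephb1 (ENSRNOG00000007865, chromosome 8), a receptor for B-type ephrins, was at 1.65, 1.46, 1.62, 1.03 and 1.92 log2 CPM in NoOp and 3.22 to 4.93 in SNx, median 4.05, a 5.72-fold difference. Efna4 (ENSRNOG00000020588, chromosome 2), an A-type ephrin ligand, differed 1.86-fold, with 2.63 to 2.84 log2 CPM in NoOp and 2.89 to 4.19 in SNx. Its lowest library, SNx 4, stood just above the controls. Ephb6, the receptor that the rule leaves out, was higher by 4.10 ± 0.54 on the log2 scale.

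Of the other genes of these pathways, those with a symbol in the lists used here can be given. Because only genes that the study lists carry a symbol, their counts are biased towards change and nothing is read from them. In the TGF-beta, activin and BMP list 8 of 58 genes had an identifier and all 8 were upregulated. Only 2 of these 8 are among the 24 genes, and Tgfbi, which fell, is not in this list. Ltbp2, a latent TGF-beta binding protein, was 3.99 ± 0.34 higher on the log2 scale, and it is on the study 2 list. In the Wnt list 5 of 58 had an identifier, all upregulated, with the transcription factor Tcf7 1.84 ± 0.14 higher and likewise on the study 2 list. In the Notch list 7 of 33 had one, 5 of them upregulated. Numbl, of the Numb family of Notch inhibitors, rose by 2.22 ± 0.43 (edgeR, adjusted p = 0.000435).

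In the EGF and ERBB list 3 of 22 had an identifier, 2 up and 1 down, and the adaptor Shc1 rose by 0.72 ± 0.09 on the log2 scale (edgeR, adjusted p = 1.31e-05). In the list of FGF, PDGF, VEGF, HGF and IGF signalling 7 of 50 had one, 5 up and 2 down, and Nrp2, a co-receptor of VEGF-C and semaphorins, rose by 1.22 ± 0.17 (edgeR, adjusted p = 1.95e-05). In the TAM list 4 of 5 had one. Mertk, another TAM receptor and on the study 2 list, differed by -0.91 ± 0.14 on the log2 scale, opposite in sign to Axl. Pros1, protein S and a ligand of Tyro3 and Mertk, rose by 0.63 ± 0.11 (edgeR, adjusted p = 0.000167). All 3 of 22 Eph and ephrin genes with an identifier were upregulated.

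The operated rats differed widely among themselves. The SD was larger in SNx than in NoOp for 23 of the 24 genes, as it was for 81.9% of all tested genes. Of the 19 genes that were higher in SNx, 14 had their highest value in SNx 1, and 8 had their lowest in SNx 11. Over all 7988 tested genes that were higher in SNx these shares were 34.3% and 25.0%. SNx 1 also had the lowest sum of proximal tubule markers and the highest sums of fibroblast and leukocyte markers, and SNx 11 the highest proximal tubule sum of the SNx libraries. The part of these in the pattern was not tested. Among the 5 that were lower, SNx 1 held the lowest value of 3 (Erbb3, Fgfr4 and Egfl6) and the highest of 1 (Tgfbi). Leaving out SNx 1 kept all 16 calls among the 17 tested genes.

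**Figure D4:**
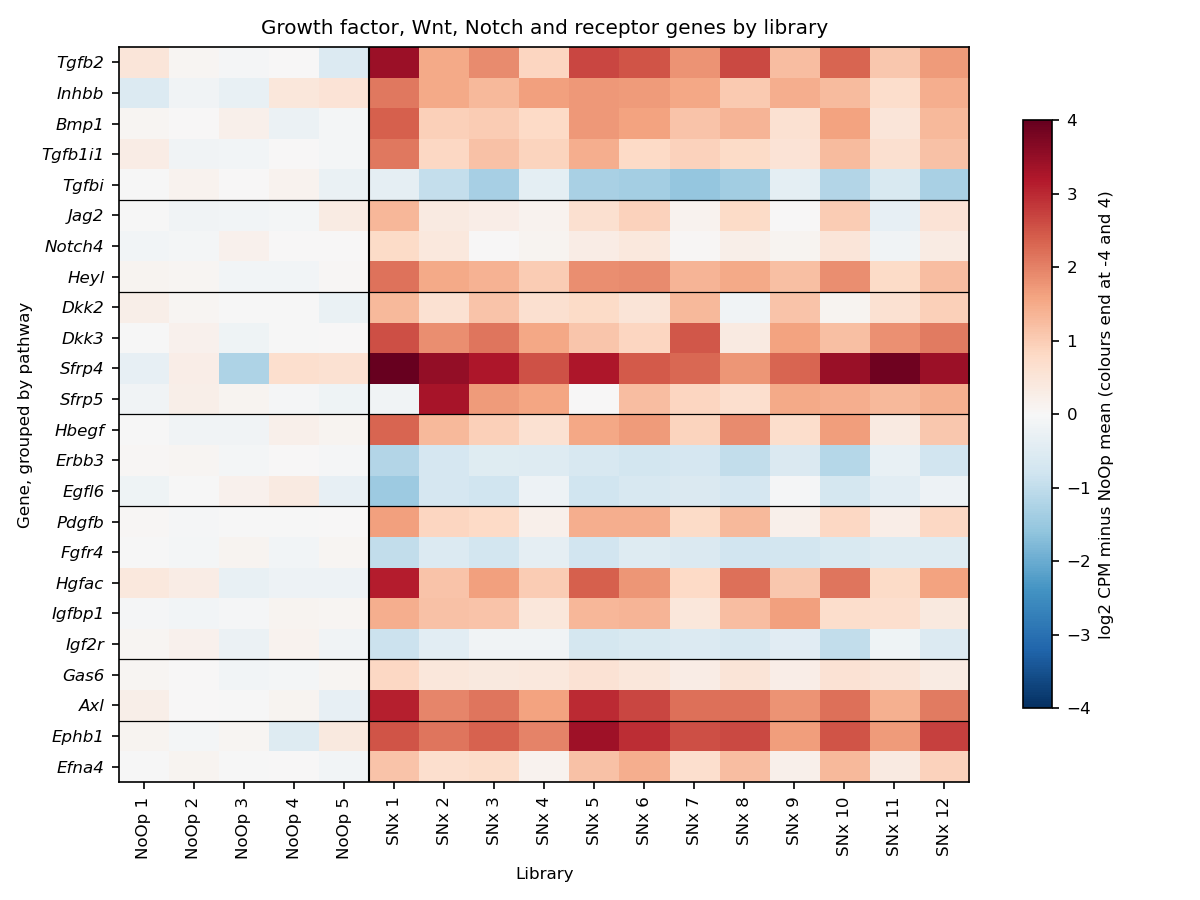
Log2 CPM minus the NoOp mean of each gene (rows, grouped by pathway) in each of the 17 libraries, red above and blue below the controls. Sfrp4 in SNx 1 lies beyond the end of the colour scale. SNx 1, 5, 6, 8 and 10 are darkest for Tgfb2 and Hgfac, whereas Dkk2 and Dkk3 are darkest in SNx 1 and 7.

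The sample numbers in the titles fall into a lower range (SNx 1 to 6 and all controls) and an upper range (SNx 7 to 12), and the labels do not say what the ranges are. Within SNx no gene differed between them at FDR < 0.05 (0.0% of 15065 genes, edgeR), with 777 genes at an unadjusted p under 0.05, and DESeq2 and limma-voom called 0 genes as well, with 989 and 738 at that p. Of the 24 genes, 22 were lower in the upper range, and 21 without SNx 1 (a count added after the data were seen), where 47.3% and 47.8% of all tested genes had a lower mean. The single gene with an unadjusted p under 0.05 in edgeR was Inhbb, at -0.42 on the log2 scale (edgeR, p = 0.0229, adjusted p = 0.832). Each gene that could be fitted kept its direction against NoOp in either range, and Sfrp5 did not pass the filter in the lower one.

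Markers of cell types that carry a symbol are given as levels. As with the pathway genes, a symbol means that the study lists the gene as changed, so the counts are largely fixed by that selection and nothing is read from them. Of the proximal tubule markers 8 of 14 had an identifier, and all 8 were lower, with a log2 of their summed CPM of 10.8 to 13.9 in SNx and 14.3 to 14.6 in NoOp. All 5 fibroblast and myofibroblast markers with an identifier, of 13, were higher (10.5 to 13.4 against 8.87 to 9.14), as were all 6 of 14 leukocyte markers (7.63 to 8.77 against 6.22 to 6.93). Of 8 podocyte markers 2 had one, 1 higher and 1 lower (6.33 to 6.80 against 6.82 to 7.26), and none of 13 endothelial and 13 distal nephron markers did, so these cells were not assessed. In bulk tissue, fewer cells of a type and less RNA per cell cannot be told apart.

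How the 24 genes followed these sums among the 12 SNx libraries was examined after the data were seen, in 72 relations (24 genes and 3 sums). With the proximal tubule sum 15 genes had a Pearson r at adjusted p under 0.05, negative for 12 and positive for 3, and 12 of the 15 passed with rho as well. Egfl6, Gas6 and Tgfb1i1 did not (permutation test, adjusted p = 0.0858, 0.0913 and 0.0882 for rho). The weakest of the 15, Tgfb1i1 at r = -0.77, was matched in size by 33.2% of all tested genes, so passing is no mark of these genes. Bmp1 was closest, with r = -0.97 and rho = -0.97 (permutation test, adjusted p = 0.00024 and 0.00072), and r = -0.93 without SNx 1 and SNx 5, the libraries farthest from the median of the sum. Tgfb2 followed at r = -0.95 and rho = -0.92 (permutation test, adjusted p = 0.00024 and 0.00216), and then Heyl at -0.93 and -0.90 (permutation test, adjusted p = 0.00048 and 0.00324). For scale, 1.87% of all tested genes had an r of at least the size of Bmp1's and 11.4% of the size of Axl's (r = -0.91).

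Jag2, Hbegf and Hgfac had r = -0.91 each, and Jag2 kept r = -0.92 without the same libraries and -0.95 and -0.94 within the ranges. Of the genes that fell, Igf2r, Erbb3 and Egfl6 had positive r, at 0.85, 0.79 and 0.79, sizes that 21.0%, 29.4% and 29.8% of all tested genes reached. For Egfl6 rho was 0.66 and r fell to 0.54 without SNx 1 and SNx 5. For Igf2r rho was 0.91 (permutation test, adjusted p = 0.00192 for r and 0.00216 for rho). Tgfbi fell in all rats and had r = 0.12 with this sum, but 0.62 without SNx 1 and SNx 5. Within the lower and upper ranges its r was -0.08 and 0.59, so the value depends on the libraries used.

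The Dickkopf genes had r = 0.08 (Dkk2) and 0.15 (Dkk3) with the proximal tubule sum, but 0.58 and 0.61 without SNx 1 and SNx 5. Within the lower and upper ranges r was -0.41 and 0.67 for Dkk2 and -0.09 and 0.55 for Dkk3. These values therefore depend on the libraries used. With the leukocyte sum Dkk2 and Dkk3 had r = 0.78 each, with rho = 0.85 for Dkk2 and 0.75 for Dkk3 (permutation test, adjusted p = 0.0124 for both r, 0.00684 and 0.0352 for rho). Without SNx 8 and SNx 6 r was 0.62 and 0.54, and within the ranges it was 0.79 and 0.79 for Dkk2 and 0.75 and 0.85 for Dkk3. Pdgfb, Axl, Inhbb, Tgfb2, Bmp1, Tgfb1i1, Heyl, Hbegf and Ephb1 exceeded both Dickkopf genes without SNx 8 and SNx 6. Their r then lay between 0.65 (Ephb1) and 0.82 (Pdgfb), and the remaining genes described here had a lower r than Dkk2. The top place of the Dickkopf genes therefore depends on these libraries. Of all tested genes 2.03% and 1.87% had an r of the size of Dkk2's and Dkk3's with all SNx libraries. With the fibroblast sum Tgfb1i1 had r = 0.89 and rho = 0.89 (permutation test, adjusted p = 0.00504 and 0.00324). That r over all SNx libraries was reached in size by 0.531% of all tested genes. Without SNx 1 and SNx 8 r was 0.77. Sfrp4 had r = 0.83 with the fibroblast sum but rho = 0.43, and r = 0.30 without these libraries, so that relation rested on them. The part of cell composition in the differences between SNx and NoOp was not tested.

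**Figure D5:**
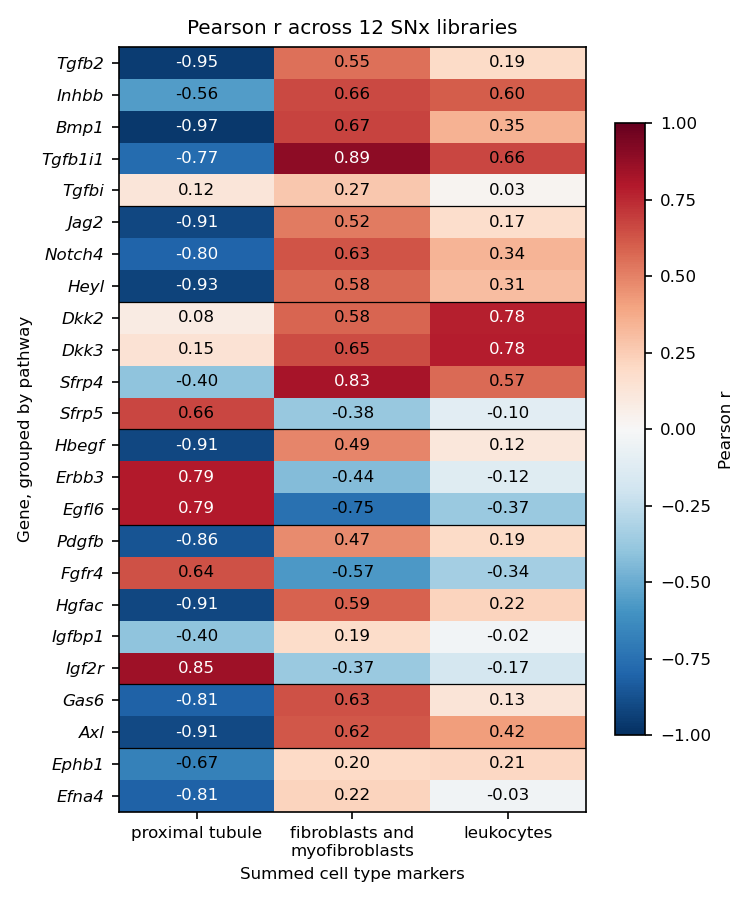
Pearson's r across the 12 SNx libraries between each gene (rows) and the log2 sum of the proximal tubule, fibroblast and leukocyte markers that carry an identifier (columns). Bmp1, Tgfb2 and Heyl are the most negative in the first column, Tgfb1i1 the highest in the second, and Dkk2 and Dkk3 the highest in the third.

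The other fixed pairs concerned TGF-beta and genes it is known to induce. Tgfb2 and Tgfb1i1 had r = 0.71 and rho = 0.57 (permutation test, adjusted p = 0.0132 and 0.0915), with r = 0.53 without SNx 1 and SNx 4. Over all 12 SNx libraries, 24.1% of all tested genes were correlated with Tgfb1i1 at least as strongly as Tgfb2 was. Tgfb2 and Tgfbi had r = -0.29 and rho = -0.35 (permutation test, adjusted p = 0.36 and 0.265), and without SNx 1 and SNx 4 r was -0.71. Of all tested genes, 40.1% had an r with Tgfbi of at least the size seen with all 12 libraries. The r of this pair therefore depends on SNx 1 and SNx 4.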

How the data were processed

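Libraries were strand-specific, made after depletion of ribosomal RNA, and read from both ends. The submitters' processing notes name Salmon, limma and build rn6, with no versions. The authors deposited, per library, estimated counts per gene (whole numbers, summarised with tximport, not normalized), and, for 13318 genes, log2 values after voom, which were used only in an alternative. The 34 columns of the whole-series tables hold the same samples and were not used. The estimated counts were rounded and tested in R 4.3.3 with edgeR 4.0.16 (filterByExpr, TMM, glmQLFit, glmQLFTest, two-sided). Correlations used Pearson's r and Spearman's rho with 100000 permutations, of which 1e-05 is the smallest p they can give, or all orders within a range. Symbols and chromosomes came from the study's transcript lists. Those parts are shortened, so a gene counted here under study 1 alone may also stand in the rest of the study 2 list.

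All members are named, and from each pathway list at most 3 other genes, those with the smallest p, and 1 of these is not reported here. The members, lists and pairs were chosen with earlier results of these data known. The alternative tests were limma-voom, DESeq2 1.42.0, limma 3.58.1 on the deposited log2 values and edgeR with robust dispersions. The alternative settings were RLE factors or no factors, a minimum of 10 counts in each library or no minimum, a 1.5-fold limit, the omission of single libraries, and the SNx libraries of 1 number range. For correlations they were a prior count of 0.5, other scaling, the deposited log2 values and fewer libraries. The tests were tried on simulated data first. Figures used Python 3.11.15 and matplotlib 3.10.9. The paper states the RNA integrity estimates as a range over all samples, which is wide and reaches low values. RNA integrity was not analysed here.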

Additional observations from a re-analysis of the deposited data

Results flagged for a closer look

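In each of the 24 genes the 5 NoOp libraries were searched for a library that stands apart from the others (Dixon's criterion at 95%). Chance alone gives about 1 in 20, or 1.2 among 24, and 1 was found. Jag2 was at 5.84 log2 CPM in NoOp 5, where the other controls lay between 5.37 and 5.48. Without NoOp 5 the log2 fold change of Jag2 was 0.64.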

How the results depend on the processing

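Requiring a change of at least 1.5-fold left 5165 of the 8949 genes called, and 12 of the 16 calls among the 17 tested genes, with Egfl6, Gas6, Igf2r and Jag2 lost. Over all other alternatives those 17 gave 15 to 17 calls, and 15 to 17 with 1 library left out at a time. None of 645 recomputed fold changes of the 24 genes changed sign. Jag2 lost its call in 10 alternatives and Notch4 gained one in 10, and no other tested gene that could be fitted changed its call under these alternatives. Sfrp4 and Sfrp5 gave no value with at least 10 counts in every library, nor did Sfrp5 in the lower range of SNx numbers. Jag2 had an adjusted p of 0.124 with the upper range of SNx numbers alone, and lost its call without SNx 5, 6, 8 or 10 or NoOp 1, 2, 3 or 4 (0.0513 to 0.0875). Notch4 had an adjusted p of 0.033 on the deposited log2 values, 0.00493 with library size alone, 0.0441 with at least 10 counts in every library and 0.0276 with the lower range alone, and was called without SNx 3, 4, 7, 9 or 11 or NoOp 3 (0.0203 to 0.0493). With library size alone, the median over all tested genes shifted from 0.02 to 0.23 on the log2 scale.

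Gas6 and Axl had r = 0.30 without the pair of libraries farthest from the median (permutation p = 0.401) and 0.078 in the upper range (exact p = 0.9). Tgfb2 and Tgfb1i1 had r = 0.53 without their farthest pair (permutation p = 0.119), 0.76 in the lower range (exact p = 0.0653) and 0.51 in the upper (exact p = 0.303). Tgfb2 and Tgfbi had r = -0.71 without SNx 1 and SNx 4 (permutation p = 0.0182). The causes were not tested. Sfrp4 and Sfrp5 have few control counts, and Sfrp5 has few counts in most SNx libraries as well, which limits the precision of their folds.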
